A study of Homo sapiens with 4 samples.

Results

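Exon skipping was described for 41 genes of the apoptosis machinery, among them BIRC6, in human 293T cells, an embryonic kidney line. An event is a set of 3 exons of which the middle one is either spliced in or left out, and it entered where its gene was one of the 41 and its junction reads averaged 20 or more over the 4 libraries. A junction read is a read that spans a splice junction. This left 196 events in 32 of the genes, covering 139 different exons, of 54503 such events in the whole table. BIRC3, CASP4, FADD, CRADD, BCL2L1, BNIP3L, ENDOG and TNFRSF10A had no row in the table, and the events of FAS were all under the read minimum. In all, 18 events of member genes were under it. The member event just inside the minimum was the 37-nt exon of CASP10, with a mean of 20 reads, and the one just outside was the 104-nt exon of BCL2L11, with 19.25.

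The libraries came from cells transfected with a gapmer against SNORD89 and from cells without it. A gapmer is an antisense oligonucleotide (ASO) with a DNA core that directs cleavage of the RNA it pairs with, and SNORD89 is a C/D box small nucleolar RNA. Per the labels, 2 libraries had the SNORD89 ASO at 70 nM and 2 had no ASO, with fresh medium after 24 hours and harvest of RNA after 48 hours. No control ASO is named, and the protocol text is the same for both groups, so whether the cells without ASO had the lipid reagent is unclear. The labels call the 2 libraries of a group biological replicates, without saying whether they were separate cultures, so the tests measure the spread between these libraries only. The table holds 2 sets of 2 libraries, and neither its header nor the labels say which set had the ASO. The name of the table puts SNORD89 ahead of no ASO, but nothing ties that order to the sets, so it was not used to assign them. Every comparison below is therefore the first set against the second set, in that order, and library 1 and library 2 are only names of the places within a set. SNORD89 has no row in the table, so the labels could not be checked on the targeted RNA, and a skipping table holds no marker of the cell line that could be checked.

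Apoptosis is run by caspases, proteases that are made as inactive precursors. In the extrinsic route, death receptors at the cell surface recruit adaptors that activate CASP8 and CASP10. In the intrinsic route, BAX and BAK1 open the outer mitochondrial membrane, cytochrome c binds APAF1, and the apoptosome so formed activates CASP9. Inhibitor of apoptosis proteins such as XIAP hold caspases back, and DIABLO and HTRA2 relieve that block once they leave the mitochondrion. Many of these genes are known to make splice forms that differ in whether they promote or restrain death.

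In the authors' deposited table, 8 of the 196 events (4.08%) had a false discovery rate (FDR) under 0.05 and a difference in inclusion level of at least 0.1, against 2.71% of all 54503 events. The inclusion level is the fraction of an event's reads that include the exon, corrected for the lengths of the forms. Transcripts with other neighbouring exons are not counted, so it is not the share of all transcripts of the gene. The 8 events lay in BIRC6, XIAP, CASP8, DIABLO and BCL2L13. In the authors' deposited table, 5 of them were more included in the first set (background 1.34%) and 3 in the second (background 1.37%). They are 8 different exons but rest on 6 different skipping junctions, since overlapping or neighbouring exons can be skipped by the same reads. Counting 1 event per exon, the one with most reads, 4 of the calls were left. With library 2 of the second set left out, 3 of the 8 stayed at 0.1 or more with their sign: the 127-nt exon of XIAP, the 142-nt exon of CASP8 and the 104-nt exon of DIABLO. Without the correction for the lengths of the forms, 3 of the 8 differed by 0.1 or more: the BIRC6 exon, the 127-nt exon of XIAP and the 305-nt exon of CASP8. A quasi-binomial model, which takes the spread between libraries of a set as its error, gave 0 of 196 member events and 0 of all tested events at a Benjamini-Hochberg adjusted p under 0.05. At an unadjusted p under 0.05 it gave 8 member events (4.08%), against 2.84% of all events, and limma on the log2 ratio of reads gave 0 adjusted and 9 unadjusted (4.59%, background 4.87%). With limma weighted by read counts, 2 member events passed at an adjusted p under 0.05 (1.02%, background 0.657%), and some other ways of setting the model's dispersion let 1 pass. A permutation of 2 libraries against 2 cannot give a two-sided exact p below 0.333.

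Sequences of the coding exons at 3 of these places show what is left out when the exon is skipped. They were read from GENCODE 29 transcripts (GRCh38), 5′ to 3′ on the strand of the gene, with the exon in capitals and 10 bases of each neighbouring exon in lower case. Positions are those of the table, on hg19. The BIRC6 exon of 134 nt lies at chr2:32706388-32706521 on the plus strand, the CASP8 exon of 142 nt at chr2:202141550-202141691 on the plus strand and the DIABLO exon of 133 nt at chr12:122709059-122709191 on the minus strand. The CASP8 exon was matched through another of its events, with another pair of neighbours. The DIABLO exon shown is not the called one: it directly abuts the called exon, with no intron between them, and is skipped by the same reads.
BIRC6 134-nt exon: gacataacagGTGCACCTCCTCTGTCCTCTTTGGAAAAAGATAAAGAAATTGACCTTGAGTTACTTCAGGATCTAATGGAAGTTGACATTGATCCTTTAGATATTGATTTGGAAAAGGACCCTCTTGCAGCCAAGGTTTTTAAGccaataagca
CASP8 142-nt exon: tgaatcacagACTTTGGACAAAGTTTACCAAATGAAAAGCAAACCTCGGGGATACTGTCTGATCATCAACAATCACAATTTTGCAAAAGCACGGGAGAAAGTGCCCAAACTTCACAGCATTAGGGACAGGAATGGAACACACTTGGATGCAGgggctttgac
DIABLO 133-nt exon: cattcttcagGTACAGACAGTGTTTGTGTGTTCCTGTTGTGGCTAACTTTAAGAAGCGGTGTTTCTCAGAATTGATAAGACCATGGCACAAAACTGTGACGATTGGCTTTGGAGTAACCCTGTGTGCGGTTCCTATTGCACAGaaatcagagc
The lengths of these 3 exons are not multiples of 3, so leaving any of them out shifts the reading frame. Among all member events, 70 of 196 (35.7%) had an exon length that keeps the frame, against 40.0% of all tested events.

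BIRC6 encodes a giant inhibitor of apoptosis that carries a BIR domain and a ubiquitin-conjugating domain. It had 15 tested events, more than XIAP with 7, BIRC5 with 8 and BIRC2 with 3. Its called exon is number 38 of 74 in the matched transcript. Its inclusion levels were 1 and 1 in the first set (201 and 91 reads) against 1 and 0.345 in the second (6 and 36 reads). The one low value was in library 2 of the second set, where 18 reads included the exon and 18 skipped it, and its 95% Wilson interval ran from 0.217 to 0.5. The 6 reads of library 1 of that set allowed any level from 0.451 to 1, and the sets overlapped. Intervals of this kind cover counting error only, and reads without molecular identifiers are not independent molecules. The authors' deposited table gave this event a difference of 0.328 at an FDR of 0.00645. Without library 2 of the second set the difference was 0. In the matched transcript, skipping brings a new stop codon 23 nt past the new junction, 6829 nt before the last one. The 315-nt exon upstream of it, number 25, had levels of 1, 1, 1 and 0.625, the last from 13 reads, and the authors' deposited table gave it an FDR of 0.346. The 781-nt exon downstream, number 55, had levels of 1 and 0.976 against 1 and 0.810, where library 2 of the second set was again the low one (FDR 0.0533, authors' deposited table).

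**Figure D1:**
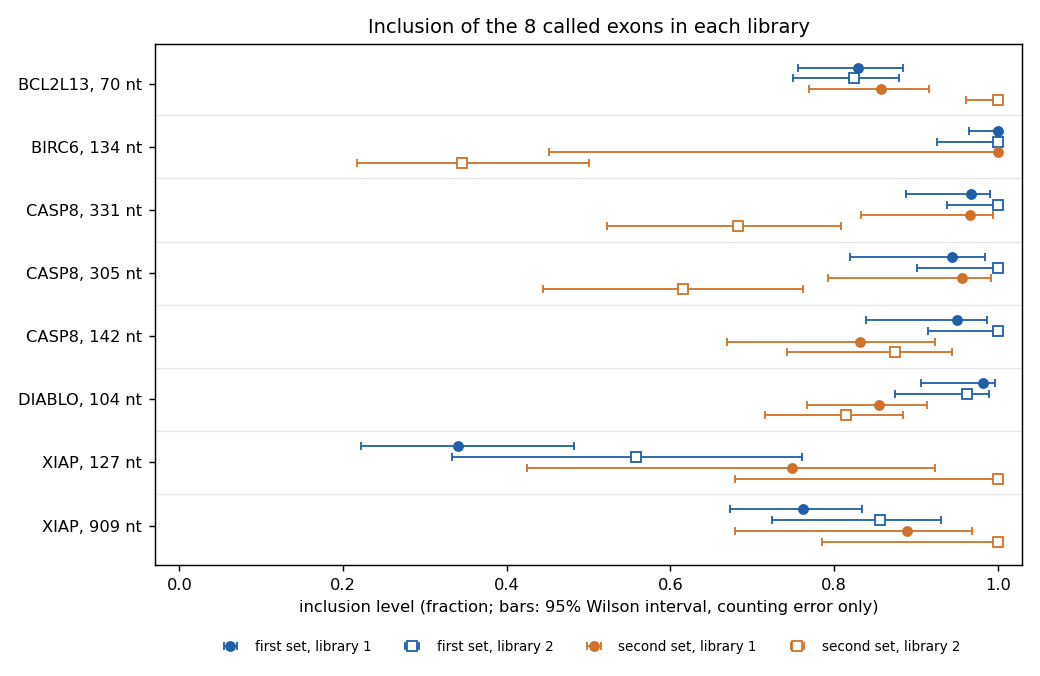
Inclusion level (x axis, fraction) of the 8 called exons, 1 point per library with its 95% Wilson interval, which covers counting error only. Library 2 of the second set alone is low for BIRC6 (0.345) and for the overlapping CASP8 exons of 331 nt (0.683) and 305 nt (0.615).

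The junction reads of BIRC6 varied along the gene, and most in the second set. At the event nearest the 5′ end, a 161-nt exon, the first set had 112 and 31 reads and the second had 0 and 17. At the called exon the counts were 201 and 91 against 6 and 36. At the event nearest the 3′ end, a 135-nt exon, they were 516 and 504 against 574 and 442. The second set held 10.6% of the reads of the first of these events, 12.6% at the called exon and 49.9% at the last. Library 1 of the second set had no read at the first event, so no level could be given there. Apart from the called exon, none of the 15 events passed the FDR in the authors' deposited table. An exon of 173 nt was used little, with levels from 0 to 0.081. The 90-nt exon near the 5′ end had levels of 0.498 and 0.652 against 0 and 1, but the last 2 values came from 1 and 14 reads. How far the low counts bear on the called difference was not tested.

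**Figure D2:**
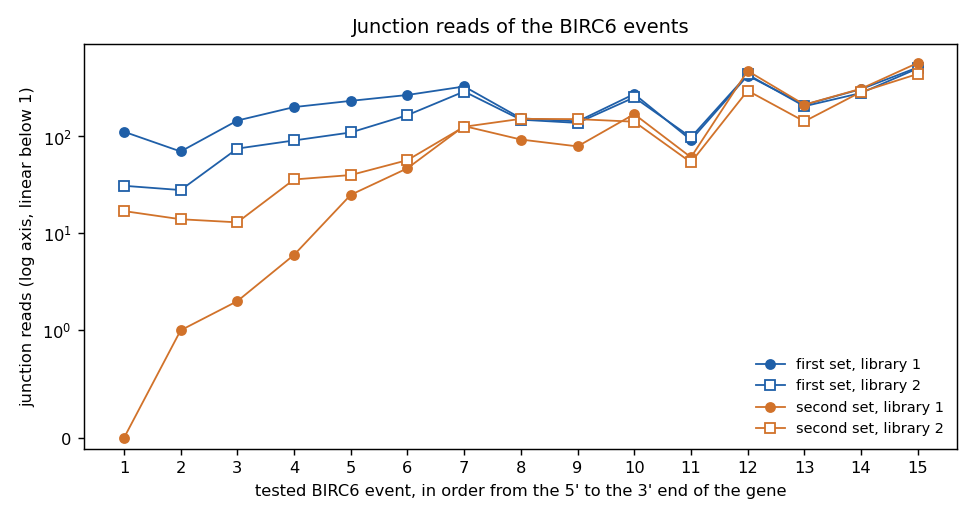
Junction reads (y axis, log scale that is linear below 1) of the 15 tested BIRC6 events in order from the 5′ to the 3′ end of the gene (x axis), 1 line per library. The lines of the second set start at 0 and 17 reads and meet those of the first set at the last event, where all 4 libraries have 442 to 574 reads.

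XIAP, which binds and blocks caspases, had 2 called events, both more included in the second set and both resting on the same skipping reads. Those reads numbered 22 and 6 against 2 and 0. They join the first exon to an exon downstream of both the 127-nt non-coding exon at chrX:122994017-122994143 and the 909-nt exon at chrX:123019481-123020389, which holds the start of the coding sequence. The 127-nt exon had levels of 0.340 and 0.557 against 0.748 and 1, so the sets did not overlap, from 43, 20, 13 and 15 reads. This event had a mean under 20 reads in the second set and passed the read minimum only through the first. The authors' deposited table gave it a difference of -0.425 at an FDR of 0.00571. Measured against another downstream exon, the same 127-nt exon had levels of 0.453 and 0.512 against 0.730 and 0.643, with a difference of -0.204 (FDR 0.284, authors' deposited table). The 909-nt exon had levels of 0.762 and 0.855 against 0.889 and 1, with a difference of -0.136 (FDR 0.0331, authors' deposited table). Without library 2 of the second set this difference fell under the minimum, to -0.0801, and so it did without library 1 of the first set, at -0.0890, and without the length correction, at -0.0770. Against its other upstream exon the 909-nt exon went the other way, at 0.912 and 0.853 against 0.822 and 0.737 (FDR 0.686, authors' deposited table).

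The other inhibitors of apoptosis had no called event. In this group 3 of 33 tested events were called (9.09%, background 2.71%). The shares of single groups were not tested against the background. BIRC5 encodes survivin, which acts in cell division as well as in apoptosis, and its exon of 118 nt was measured at great depth. This exon, whose loss gives the form survivin-ΔEx3, had levels of 0.857, 0.858, 0.859 and 0.811, from 2134 to 2854 reads. Its lowest value was again that of library 2 of the second set, whose interval of 0.792 to 0.828 lay under those of the other libraries. Its FDR in the authors' deposited table was 0.714.

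Exons known for isoforms of this pathway are shown as sequences, since the levels given here and below refer to their presence or absence. All are on the plus strand except MCL1. The BIRC5 exon lies at chr17:76212745-76212862, the APAF1 exon at chr12:99097149-99097277 and the MCL1 exon at chr1:150550720-150550967, all on hg19. Capitals mark the exon, as above.
BIRC5 118-nt exon: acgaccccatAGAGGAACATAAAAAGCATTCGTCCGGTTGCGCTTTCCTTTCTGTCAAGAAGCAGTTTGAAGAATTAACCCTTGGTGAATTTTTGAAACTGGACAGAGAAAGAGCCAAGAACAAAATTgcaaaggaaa
APAF1 129-nt exon: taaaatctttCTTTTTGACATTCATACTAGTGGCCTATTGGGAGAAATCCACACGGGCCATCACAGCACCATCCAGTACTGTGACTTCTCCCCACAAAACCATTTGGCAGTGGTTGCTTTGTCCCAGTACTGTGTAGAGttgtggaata
MCL1 248-nt exon: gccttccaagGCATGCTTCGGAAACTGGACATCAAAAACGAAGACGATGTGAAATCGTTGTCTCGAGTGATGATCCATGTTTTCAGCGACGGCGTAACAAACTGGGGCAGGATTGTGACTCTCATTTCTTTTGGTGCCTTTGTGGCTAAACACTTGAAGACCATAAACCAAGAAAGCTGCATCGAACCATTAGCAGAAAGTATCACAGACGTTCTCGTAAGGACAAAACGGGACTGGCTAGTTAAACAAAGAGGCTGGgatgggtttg

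**Figure D3:**
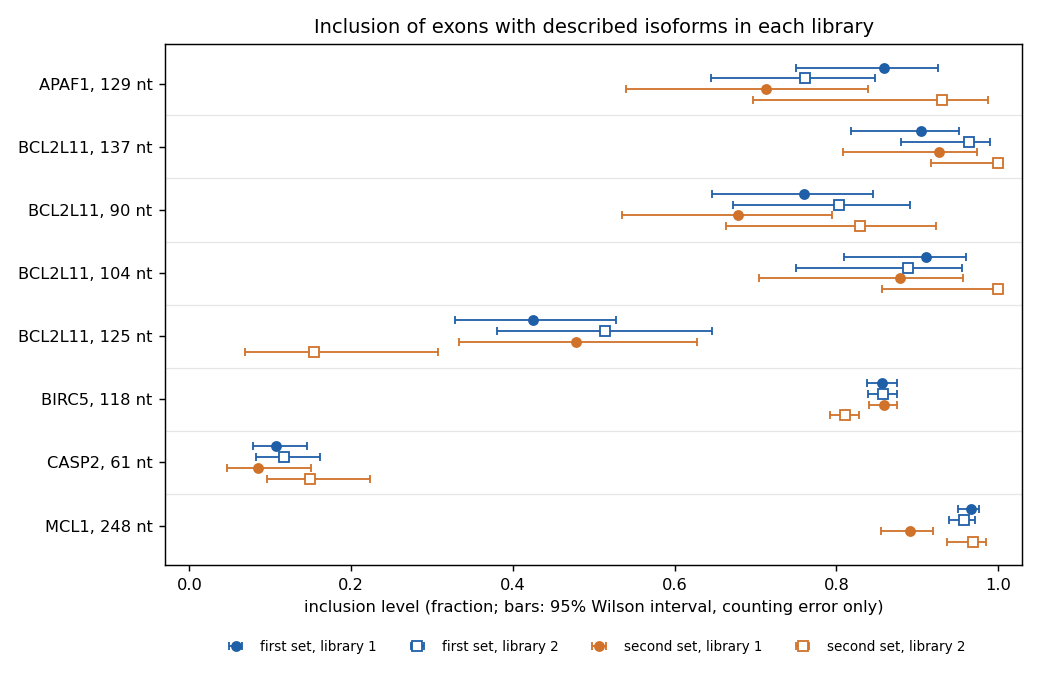
Inclusion level (x axis, fraction) of exons of APAF1, BCL2L11, BIRC5, CASP2 and MCL1 with described splice forms and a mean level between 0.05 and 0.95, 1 point per library with its 95% Wilson interval for counting error. The libraries of the sets overlap for every exon shown, and library 2 of the second set is low for the 125-nt exon of BCL2L11 (0.153).

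Among the caspases, 3 of 24 tested events were called (12.5%, background 2.71%). All were in CASP8, the initiator caspase of death receptors, and all were more included in the first set. Exons of 331 and 305 nt that share their 3′ end, at chr2:202131184-202131514 and chr2:202131210-202131514, were skipped by the same reads: 2, 0, 1 and 10. The 331-nt exon had levels of 0.967 and 1 against 0.966 and 0.683, and the 305-nt exon 0.944 and 1 against 0.957 and 0.615. In the authors' deposited table these were differences of 0.159 at an FDR of 0.00569 and of 0.186 at an FDR of 0.0196. Only library 2 of the second set was low, and without it the differences were 0.0172 and 0.0153. Without the length correction the difference of the 331-nt exon was 0.0945. With another upstream exon, the 331-nt exon had levels of 1 and 0.969 against 1 and 1. The 142-nt coding exon of CASP8 had levels of 0.95 and 1 against 0.831 and 0.874, with a difference of 0.122 (FDR 0.0214, authors' deposited table). Here both libraries of the second set were lower, with 5 skipping reads each. The difference was 0.0978 without library 2 of the first set and 0.0684 without the length correction, both under the minimum. The other events of that exon, with other neighbours, had levels of 0.928 or more in every library. The 45-nt exon of CASP8, included in some of its isoforms, had levels of 0.666 and 0.807 against 0.746 and 0.740, so the sets overlapped.

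The remaining caspases had no called event among those tested. CASP2 is an initiator caspase whose 61-nt exon, when included, brings an early stop and gives a short form. That exon, at chr7:142997473-142997533, had levels of 0.107 and 0.116 against 0.0842 and 0.149, from 87 to 256 reads, and the sets overlapped. CASP6, an executioner caspase, had levels of 0.962 and 0.947 against 0.941 and 0.945 at its 77-nt exon, a gap smaller than any of the counting intervals. All 4 tested events of CASP9 and both of CASP10 had mean levels outside 0.05 to 0.95. Under the read minimum, 4 member events passed the FDR in the authors' deposited table, in CASP6, CASP8 and CASP10, and were not used here.

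None of the 17 tested events of the death receptors and their adaptors was called (background 2.71%). CFLAR encodes c-FLIP, which competes with CASP8 at the receptor, and its 418-nt exon had levels of 0.845 and 0.940 against 0.973 and 0.760. RIPK1, a kinase of the TNF receptor complex, had levels of 0.973 and 0.832 against 0.941 and 1 at its 229-nt exon (FDR 0.0517, authors' deposited table). TRADD, the adaptor of that receptor, had levels of 0.782 and 0.901 against 0.882 and 0.851 at its 278-nt exon. In each of these 3 the sets overlapped, and the libraries of the first set differed from each other by more than the set means did. FAS, whose 63-nt exon decides between a membrane and a soluble receptor, had 18, 20, 6 and 4 reads there, with levels of 0.849, 1, 1 and 1, and was not tested.

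Among the mitochondrial factors and the apoptosome, 1 of 26 tested events was called (3.85%, background 2.71%). It was in DIABLO, which frees caspases from inhibitors of apoptosis. Its 104-nt exon at chr12:122709192-122709295 had levels of 0.982 and 0.962 against 0.855 and 0.814, from 94, 89, 132 and 118 reads. Both libraries of the second set were lower, with 12 and 14 skipping reads against 1 and 2. The authors' deposited table gave a difference of 0.137 at an FDR of 0.00129, and leaving out any 1 library kept it at 0.117 or more. Without the length correction it was 0.0882. The quasi-binomial p was 0.0415 unadjusted and 0.849 adjusted. The 133-nt exon directly abuts this 104-nt exon, with no intron between them, so the 2 are not separate exons in a row. It is far more read and is skipped by the same reads: its levels were 0.997 and 0.994 against 0.969 and 0.969, a difference of 0.027 (FDR 0.0105, authors' deposited table). The 132-nt exon of DIABLO went the other way, at 0.944 and 0.937 against 0.960 and 0.989, with a difference of -0.034 (FDR 0.0181, authors' deposited table). So did a further tested event of DIABLO, which was not called, with a difference of -0.127 (FDR 0.208, authors' deposited table).

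HTRA2, a mitochondrial protease, passed the FDR at overlapping non-coding exons of 68 and 52 nt, where the authors' deposited table has differences of -0.048 and -0.05. Library 1 of the first set was the low one, at 0.913 for the 68-nt exon, beside 0.991, 1 and 1. Its 96-nt exon had levels of 0.758 and 0.683 against 0.721 and 0.689, and the sets overlapped. The 129-nt exon of APAF1, which adds a WD-40 repeat to the cytochrome c binding part, had levels of 0.859 and 0.761 against 0.713 and 0.931, from 99, 97, 45 and 26 reads. Skipping it keeps the reading frame. The interval of the library with 26 reads ran from 0.697 to 0.987, which covers the levels of all the others. CYCS and AIFM1 had no tested event of intermediate level.

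The BCL2 family and its relatives had 65 tested events, of which 1 was called (1.54%, background 2.71%). It was the 70-nt exon of BCL2L13 at chr22:18178907-18178976, with levels of 0.829 and 0.824 against 0.857 and 1, where library 2 of the second set had 139 reads, none of them skipping (interval 0.961 to 1). The authors' deposited table gave a difference of -0.102 at an FDR of 0.0298, and without that library the difference was -0.0309. It was -0.0993 without library 2 of the first set and -0.0741 without the length correction. With another neighbour the same exon had levels of 0.925 and 0.903 against 0.879 and 0.921, and a difference of 0.014 in the authors' deposited table. MCL1 protects mitochondria, and loss of its 248-nt second exon gives a short form that promotes death. That exon had levels of 0.966 and 0.958 against 0.891 and 0.969. Only library 1 of the second set was low, with 37 skipping reads of 644. The difference was 0.032 (FDR 0.0427, authors' deposited table), and without that library it turned to -0.00661. The 87-nt exon of BCL2L12 showed the same dependence on that library, at 0.973 and 0.990 against 0.878 and 1 (FDR 0.0365, authors' deposited table).

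BCL2L11 encodes BIM, a BH3-only protein made in several lengths, and had 11 tested events with none passing the FDR in the authors' deposited table. Its 125-nt exon had levels of 0.425 and 0.514 against 0.479 and 0.153, where only library 2 of the second set was low, from 24 reads. Its 90-nt exon had 0.760 and 0.803 against 0.678 and 0.829, and its 104-nt exon 0.910 and 0.888 against 0.879 and 1. Its 137-nt exon had 0.904 and 0.964 against 0.927 and 1, with overlap of the sets. BAX was measured more deeply, and the levels of its 147-nt exon stayed within 0.903 to 0.928 in the 4 libraries, from 1967 to 3560 reads. BCL2L12 was as close, with 0.906 and 0.903 against 0.917 and 0.915 at its 273-nt exon. BID, which links the death receptors to the mitochondrion, had 0.884 and 0.971 against 0.935 and 0.825 at its 70-nt exon. BCL2L2 had 0.495 and 0.883 against 0.776 and 1 at a 117-nt exon with 22 to 40 reads, and BNIP2 had 0.12 and 0.1 against 0.189 and 0.0442 at its 36-nt exon. In BID, BCL2L2 and BNIP2 the sets overlapped.

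Genes of nuclear breakdown had no called event among 31 (background 2.71%). Of the 31 events, 5 passed the FDR in the authors' deposited table at smaller differences (16.1%, background 5.72% at any difference). All 5 were in DFFB. DFFB is the nuclease that cuts DNA between nucleosomes, and DFFA is its inhibitor. The 127-nt exon of DFFB had levels of 0.905 and 0.935 against 1 and 0.979, a difference of -0.07 (FDR 0.0231, authors' deposited table). The other 4 events were overlapping exons of 189 to 358 nt. In those of 358 and 239 nt that are skipped by 0, 8, 0 and 0 reads, library 2 of the first set alone was low, at 0.840 and 0.843. In the 2 others the skipping reads were 8, 4, 0 and 1, the same counts as at the 127-nt exon. Their levels were 0.874 and 0.914 against 1 and 0.957 for the exon of 239 nt and 0.879 and 0.919 against 1 and 0.957 for that of 189 nt, without overlap of the sets. The most-read exon of intermediate level in DFFB, of 149 nt, had levels of 0.937 and 0.879 against 0.945 and 1, also without overlap (FDR 0.0881, authors' deposited table). DFFA had levels of 0.930 and 0.914 against 0.908 and 0.908 at its 190-nt exon. ACIN1, which acts in chromatin condensation and binds RNA, had a 62-nt exon used at 0.210 and 0.207 against 0.212 and 0.180 with one neighbour. With another neighbour that exon had 0.566 and 0.607 against 0.643 and 0.694, without overlap of the sets, (FDR 0.156, authors' deposited table).

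Over all member events, 19 of 196 (9.69%) passed the FDR in the authors' deposited table at any size of difference, against 5.72% of all tested events. Several of the 19 share reads, as given above for CASP8, DFFB, DIABLO, HTRA2 and XIAP. Inclusion was near complete for most events: 111 of 196 (56.6%) had a mean level above 0.95, against 66.1% of all tested events. In 61 events the mean level was between 0.05 and 0.95, with reads in every library. Of these 61, 15 (24.6%) had sets that did not overlap, against 33.4% of such events in the whole table. The share was thus under that of the background. Were 4 libraries without ties split into the sets at random, the expected share would be 0.333. The median absolute difference of the 61 was 0.036 in the authors' deposited table, beside 0.055 for all events of that kind. In a list of 77 other genes of the pathway, 49 had tested events, and 9 of 261 events (3.45%) were called in the authors' deposited table, 5 higher in the first set and 4 in the second. Of the 73 events of intermediate level in that list, 30 (41.1%) had sets that did not overlap. Member events that matched an annotated transcript numbered 157, of which 100 had a coding middle exon, 32 a partly coding one and 25 a non-coding one. For 94 coding events the effect of skipping could be traced: 62 gave a new stop codon and 32 kept the annotated one, and in 43 the new stop lay over 50 nt before the last junction.

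The junction reads of a gene, added over its tested events, were compared between the sets. These are the reads on which the events passed the read minimum: 10 member events, 3 of them in BIRC6, had a mean under 20 in the second set and passed through the first, and 0 passed through the second. All events of the same genes were also added with no read minimum. The counts given next were then the same, 10 and 8 (backgrounds 21.8% and 20.3%), for the same 18 genes. This only adds the events under the minimum and keeps the 10 that passed through the first set. It therefore cannot show how the minimum bears on the counts. Overlapping events count a read more than once, and in such bulk samples fewer cells with a transcript and less of it per cell cannot be told apart. Values are log2 of reads per 1000000 plus a pseudocount of 0.5, centred on the median gene, since the median gene was 0.35 higher in the first set without centring. In limma, 10 of the 32 member genes were higher in the first set at an adjusted p under 0.05 (31.2% of them, background 21.6%) and 8 were lower (25% of them, background 19.9%). Without centring, 14 were higher (43.8%, background 38.8%) and 1, BAX, was lower (3.12%, background 3.86%). Without library 1 of the first set, 2 were higher (6.25%, background 6.63%) and 1 was lower (3.12%, background 4.72%). Without library 2 of the second set, 6 were higher (18.8%, background 19.7%) and 9 lower (28.1%, background 16%). Of the 18 genes, MCL1 and CASP2 stayed under a limma adjusted p of 0.05 whichever library was left out. Without library 1 of the first set, 15 of the 18 no longer did, and CYCS no longer did without library 1 of the second.

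XIAP was 1.24 ± 0.25 (SE as moderated by limma, n = 2 libraries a set) higher in the first set on this log2 scale (limma, adjusted p = 0.000548, and 0.0772 without library 1 of the first set). It had 766 and 433 reads against 210 and 190, or centred log2 values of 4.11 and 3.42 against 2.65 and 2.41. A moderated SE also draws on the spread of all other genes, so it is not the SE of the gene's own libraries alone. The same holds for each SE below. MCL1 was 1.06 ± 0.20 higher (limma, adjusted p = 0.000366), with 1503 and 1127 reads against 644 and 441. CASP2 was 0.95 ± 0.19 higher and APAF1 1.14 ± 0.29 higher, with limma adjusted p of 0.000413 and 0.00346, and of 0.0354 and 0.0935 without library 1 of the first set. TNFRSF10B, a receptor for the ligand TRAIL, BNIP2, DFFB, BCL2L11, RIPK1 and BIRC6 were higher too, by 0.40 to 0.88. BIRC6 had the smallest of these, 0.40 ± 0.14 (limma, adjusted p = 0.0255), which was 0.259 without library 1 of the first set and 0.217 without library 2 of the second. Without centring every gene moves up by the same amount, so these 10 could only be higher there too. BAX was 0.71 ± 0.14 lower in the first set (limma, adjusted p = 0.000569, and 0.0506 without library 1 of that set), with 8255 and 10011 reads against 14286 and 11910. BAD, BCL2L12, HTRA2, BID, DIABLO, BIRC5 and CYCS were lower by 0.45 to 0.67 with centring and by 0.09 to 0.32 without it, where none of these 7 passed the test. CYCS encodes cytochrome c, and BAD is a BH3-only protein.

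**Figure D4:**
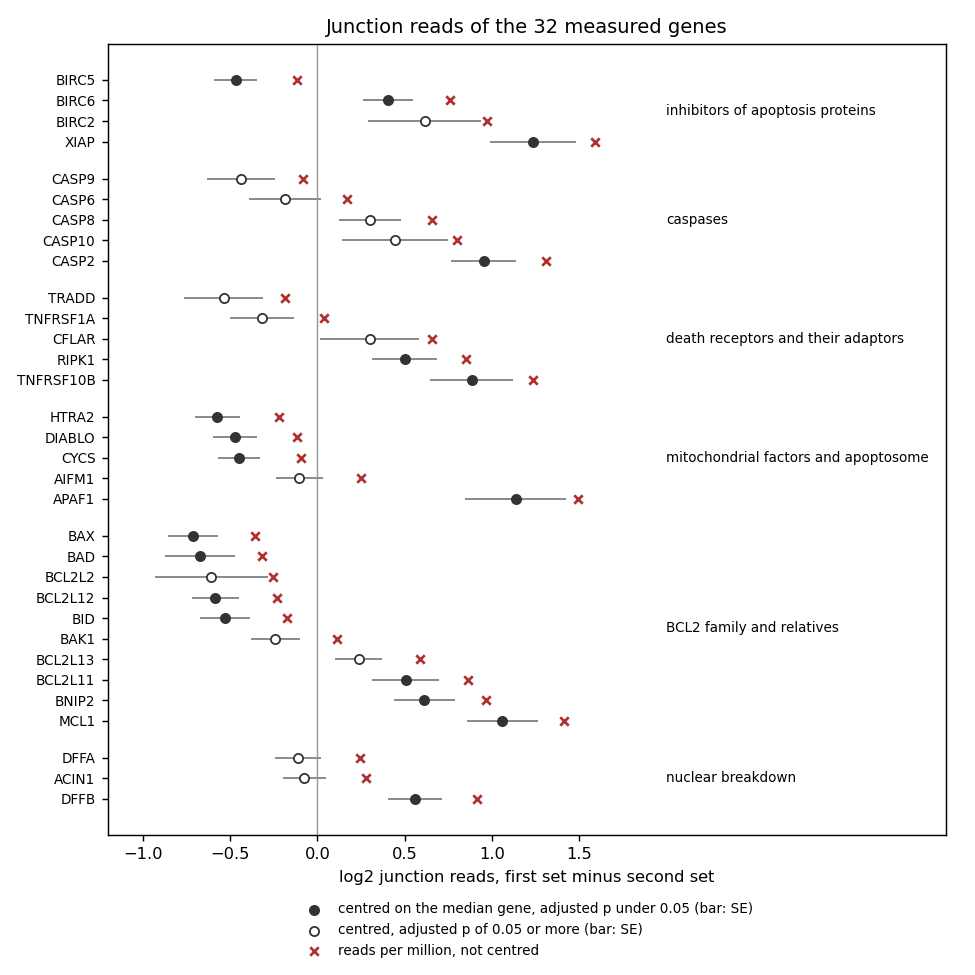
Difference in log2 junction reads, first set minus second set (x axis), of the 32 measured genes in 6 groups by role. Circles are centred on the median gene with bars of 1 SE as moderated by limma, filled at a limma adjusted p under 0.05. Crosses are the same without centring, which lie 0.35 to the right.

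The reads of the member events moved with the distance of the exon from the 3′ end of its longest matched transcript, as in the whole table. The distance was taken in the longest GENCODE 29 transcript that holds the same 3 exons. That gave 157 member events and 42390 of all tested events. Such a transcript can be short, so a small distance need not mean the 3′ end of the main mRNA. In XIAP some events were placed at 81 to 608 nt and others at 7193 to 7415 nt. BNIP2 had events at 39 to 742 nt and at 5161 to 5818 nt. The log2 difference in reads was centred on the median event. Of 53 member events in 21 genes within 1000 nt of the 3′ end, 11 were higher in the first set (20.8%, background 27.8%). Their median was -0.45, beside -0.30 for all events there. From 1000 to 2000 nt it was -0.20 over 32 member events, beside -0.13. From 2000 to 4000 nt it was 0.39 over 35, beside 0.26. Farther than that it was 0.42 over 37 events in 9 genes, beside 0.64 for all events there. Of the 37, 34 were higher in the first set (91.9%, background 85.4%). Events of 1 gene can share reads and are not independent. Without BIRC6 the last median was 0.39. The MCL1 exon lies 2936 nt from the end and was 1.08 higher, and the called BIRC6 exon lies 8027 nt from it. The share of this pattern in the differences of the genes and exons was not tested.

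**Figure D5:**
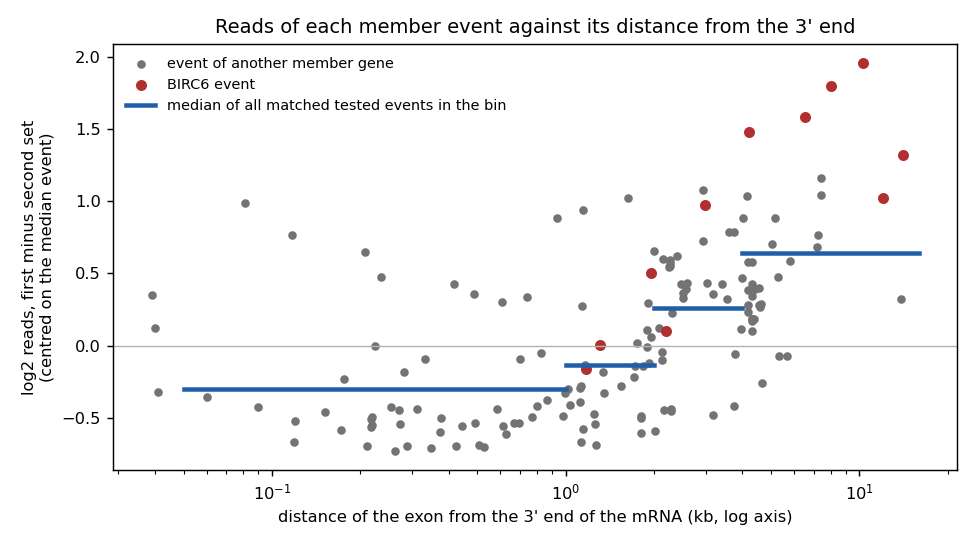
Log2 difference in junction reads, first set minus second set (y axis, centred on the median event), of 157 member events. The x axis is the distance of the exon from the 3′ end of its longest matched transcript (kb, log scale), with BIRC6 in red. Blue lines are medians of all matched tested events in 4 ranges of distance, from -0.30 within 1000 nt to 0.64 beyond 4000 nt.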

How the data were processed

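The data are 1 comparison table of skipped exons from poly(A) RNA of 4 libraries, sequenced as pairs of 150 bases per the labels. Per the submitters' processing notes, cutadapt and STAR were used and the build is hg19; per the file headers, the table has the layout of rMATS for junction reads. The rMATS version, the tool settings and the annotation release are not given in the sources used here. The deposited table holds, per event, inclusion and skipping read counts of 2 libraries per set, inclusion levels as a fraction, the authors' p-value and FDR, and the difference in level as a score from -1 to 1, made by the authors as first set minus second. Recomputing the levels gave the deposited values within 0.0005. The libraries held 38613055 to 43929373 junction reads summed over events, with a median of 144 to 212 for a member event, and 1 to 11 member events had under 20 reads in a library.

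Events with a mean of at least 20 reads were tested over the whole table, and only member rows are printed. The quasi-binomial model per event had its dispersion moderated by squeezeVar of limma 3.58.1 (R 4.3.3) and kept at 1 or more. The prior of that dispersion was chosen after the data were seen, with the calls on the deposited reads in view. On those reads 14 versions were compared, and gave 0 to 110 calls over all events and 0 to 1 among the members. Only some of the versions were also run on simulated reads. The version used took the prior from events with a pooled level between 0.05 and 0.95 and at least 10 reads of each form; it was chosen for its few false calls in simulation and makes 0 calls, which is no measure of how many exons changed. limma was also fitted to log2 read ratios (pseudocount 0.5) and, chosen after seeing the data, to log2 junction reads per 1000000 of each gene. Intervals are 95% Wilson intervals on the reads of a library, carried to the corrected scale. Scripts for the tests were tested on simulated data. Exons were matched to GENCODE 29 transcripts of the gene by the length of the exon and of the introns beside it, and no position was converted between builds.

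The named events are those called or with an FDR under 0.05 in the authors' deposited table, those with an unadjusted quasi-binomial p under 0.05 and a difference of at least 0.1, the most-read event of intermediate level per gene, and exons with described isoforms in FAS, CASP2, MCL1, BIRC5, APAF1, BCL2L1 and BCL2L11. Further events of the same exons are given beside them, and 1 named event is not reported here. The members, lists and tests were chosen with earlier results of these data known.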

Additional observations from a re-analysis of the deposited data

How the results depend on the processing

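The count of 8 called member events was 14 with a difference of at least 0.05, 2 with at least 0.2, 4 with an FDR under 0.01, 4 with 1 event per exon, and 3 to 8 when 1 library was left out, lowest without library 2 of the second set. It stayed within 1.5 times the main count with read minimums of 10, 50 or none (7 to 12), with adjustment over tested events (8) and where the sets had to be apart (6). The quasi-binomial count of 0 was 2 by limma with precision weights, which called the BIRC6 exon of 134 nt and the MCL1 exon, and 1, the BIRC6 exon, in 7 of the 13 other dispersion priors, chosen after seeing the data: Pearson dispersion with a trend, a floor of 0.1, a floor of 1 or a robust prior, and deviance with a floor of 0.1, a floor of 1 or a robust prior. It stayed at 0 in the other 6 priors, under each read minimum, in both unweighted limma fits and without each library (range 0 to 0). The number of member events with separate sets, 15, was 4 with a gap over 0.05 (6.56%, against 12.9% of all such events), 3 with a gap over 0.1 (4.92%, against 5.51%), 6 of 35 for levels between 0.1 and 0.9 (17.1%, against 33.9%) and 8 of 48 without correction for form lengths (16.7%, against 34.0%). The member genes with more junction reads in the first set, 10, ranged from 2 to 9 without 1 library. Those with fewer, 8, ranged from 1 to 9, and were 1 without centring. Both counts were as before with no read minimum, which only adds the events under it. These gene alternatives were chosen after seeing the data.

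Of 264 recomputed differences of named events, 241 kept their side or stayed within the spread of the libraries, 13 of called events fell under 0.1, 8 moved by more than the spread, and 2 turned when a library was left out: without 1 library the difference ranged from -0.00661 to 0.0708 for the MCL1 exon and from -0.0185 to 0.104 for the 87-nt exon of BCL2L12, the lowest without library 1 of the second set; the cause was not tested. No paired analysis was possible because the columns of the table carry no replicate numbers. Depth limits the 5′ events of BIRC6 most, with 0 to 6 reads in library 1 of the second set.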
